A study of Mus musculus with 16 samples.

Results

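The 9 genes described here are Ucp1, Cidea, Elovl3, Cox7a1, Cox8b, Dio2, Ppargc1a, Prdm16 and Adrb3, a set known from brown adipose tissue, taken by symbol from the 24011 genes of the count table. All 9 are in the table and all 9 passed the filter on low counts in the aorta. They were measured in aorta and, as a background tissue, in liver of female C57BL/6 mice that had been ovariectomized at an age of 6 to 7 weeks and were used 1 week later. Every group shares the ovariectomy and an ex vivo culture of 4 h in DMEM. The groups are aorta with ethanol vehicle, aorta with estradiol at 10 nM (E2, an estrogen hormone), liver with vehicle and liver with E2, each of 4 libraries. The labels describe 8 libraries from the Ovation kit and 8 poly-A selected TruSeq libraries, the latter from RNA of a single aorta or liver fragment. The design text of the series speaks of 2 replicates per condition, each pooled from 4 mice, and leaves the TruSeq libraries out. Libraries are called by their column suffix, o1, o2, n1 or n2, whose meaning no label gives. Whether the libraries of a group came from separate animals is not fully stated, so p-values measure the spread between these libraries, which may be partly technical.

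Brown adipocytes burn fat to make heat. Noradrenaline acts on the beta-3 adrenergic receptor, raises cAMP and releases fatty acids, and these activate uncoupling protein 1, which lets protons leak across the inner mitochondrial membrane. The thoracic aorta of rodents is wrapped in perivascular fat of brown character, so an aorta taken with its surrounding fat carries RNA of these cells. The labels used here do not say how much perivascular fat was left on the vessels.

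Promoters were looked up in RefSeq (build GRCm38.p6), which gave 250 bases before and 50 bases after the start site for 6 of the 9 genes. The 3 shown are those of Ucp1 and Dio2, whose levels varied together across libraries, and of Ppargc1a, which differed most in the opposite direction between o and n libraries. They lie at chr8:83290098-83290397 on the plus strand (Ucp1), chr12:90738989-90739288 on the minus strand (Dio2) and chr5:51567676-51567975 on the minus strand (Ppargc1a). Capitals mark matches to AGGTCA, the core of nuclear receptor sites, to TGACG or TGACGTCA, the core and the full form of the cAMP response element, and to TATAAA, the TATA box.

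Ucp1: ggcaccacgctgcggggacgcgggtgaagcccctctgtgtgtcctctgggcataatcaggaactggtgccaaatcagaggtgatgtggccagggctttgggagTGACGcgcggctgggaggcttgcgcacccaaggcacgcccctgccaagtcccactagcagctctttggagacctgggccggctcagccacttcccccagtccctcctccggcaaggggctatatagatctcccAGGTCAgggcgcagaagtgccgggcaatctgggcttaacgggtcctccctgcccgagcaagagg

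Dio2: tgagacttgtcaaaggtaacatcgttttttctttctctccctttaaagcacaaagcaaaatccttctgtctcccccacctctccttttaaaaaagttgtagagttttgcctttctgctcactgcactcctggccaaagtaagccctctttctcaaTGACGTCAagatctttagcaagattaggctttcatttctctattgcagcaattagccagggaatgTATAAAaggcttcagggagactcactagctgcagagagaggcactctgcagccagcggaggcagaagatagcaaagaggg

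Ppargc1a: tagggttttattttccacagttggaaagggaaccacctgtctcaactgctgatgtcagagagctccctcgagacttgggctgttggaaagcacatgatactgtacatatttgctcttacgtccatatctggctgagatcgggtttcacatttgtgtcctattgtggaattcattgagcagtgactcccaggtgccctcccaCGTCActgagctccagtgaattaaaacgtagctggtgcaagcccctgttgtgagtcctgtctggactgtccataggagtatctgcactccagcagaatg

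In these windows AGGTCA was found in Ucp1, at position −14 from the start site, and TGACG at −147. TGACGTCA was found in Dio2 at −95, with TATAAA at −30, and TGACG was found on the other strand of Ppargc1a at −49. The full cAMP element TGACGTCA, which contains TGACG on both strands, occurred in 1.79% of 32851 promoter windows of 300 bases, its core TGACG in 20.8%, AGGTCA in 16.3% and TATAAA, searched on the gene's strand only, in 8.32%. The estrogen response element GGTCANNNTGACC occurred in 0.07% of windows, the PPAR element AGGTCANAGGTCA in 0.0396% and the ERR element TCAAGGTCA, each searched on both strands and each holding AGGTCA or part of it, in 0.423%. None of these last 3 was found in the 6 windows, which says only that these letters are not there.

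Counts assigned to genes ran from 6042073 to 19823982 in the 4 vehicle libraries of aorta, from 6471319 to 16905441 with E2, from 5210693 to 13078032 in liver with vehicle and from 3896733 to 11796977 in liver with E2. Levels are given as CPM, counts per 1000000 gene reads after TMM scaling. The labelled tissues carried their own markers: 9 of 10 tested smooth muscle genes were called higher in aorta than in liver and 12 of 12 hepatocyte genes lower. Of all 12607 genes tested, 24.1% were called higher in aorta and 23.4% lower. Adipoq, a hormone gene of fat cells, stood at 82.5 to 236.5 CPM in the 8 aorta libraries and at most at 0.546 CPM in liver. Of 14 tested brown and beige marker genes, 7 were called higher in aorta and 3 lower, beside the 24.1% and 23.4% of all genes. Slc36a2, an amino acid transporter gene used as a brown fat marker, was higher by 6.30 ± 0.63 on the log2 scale (SE), Ntrk3, a neurotrophin receptor gene, by 5.21 ± 0.45 and Pdk4, a pyruvate dehydrogenase kinase gene, by 2.19 ± 0.38, while Slc29a1, a nucleoside transporter gene, differed by −2.34 ± 0.27. Zic1, a marker of classical interscapular brown fat, reached at most 0.116 CPM in aorta, and Lep, the leptin gene of white fat, at most 0.233 CPM, both chosen for mention after their values were seen.

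The 9 genes covered a wide range of levels in the vehicle aorta. Relative to transcript length, Cox8b and Ucp1 stood highest, at 231.0 ± 101 and 185.6 ± 106 CPM per kb of exon (SD, n = 4). Cidea followed at 50.7 ± 46.4 and Cox7a1 at 44.4 ± 17.6 CPM per kb. Dio2 at 8.00 ± 4.38, Prdm16 at 7.86 ± 2.80, Elovl3 at 7.78 ± 8.13 and Ppargc1a at 6.39 ± 7.16 CPM per kb lay far below and within each other's spread, and Adrb3 was lowest at 1.34 ± 0.778 CPM per kb. Between neighbours in this order the libraries overlapped, except between Cox7a1 and Dio2. These means pool o and n libraries. In the vehicle n libraries alone Ppargc1a lay below Adrb3, at means of 0.403 and 2.01 CPM per kb. In bulk tissue, fewer cells of a type and less RNA per cell cannot be told apart.

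**Figure D1:**
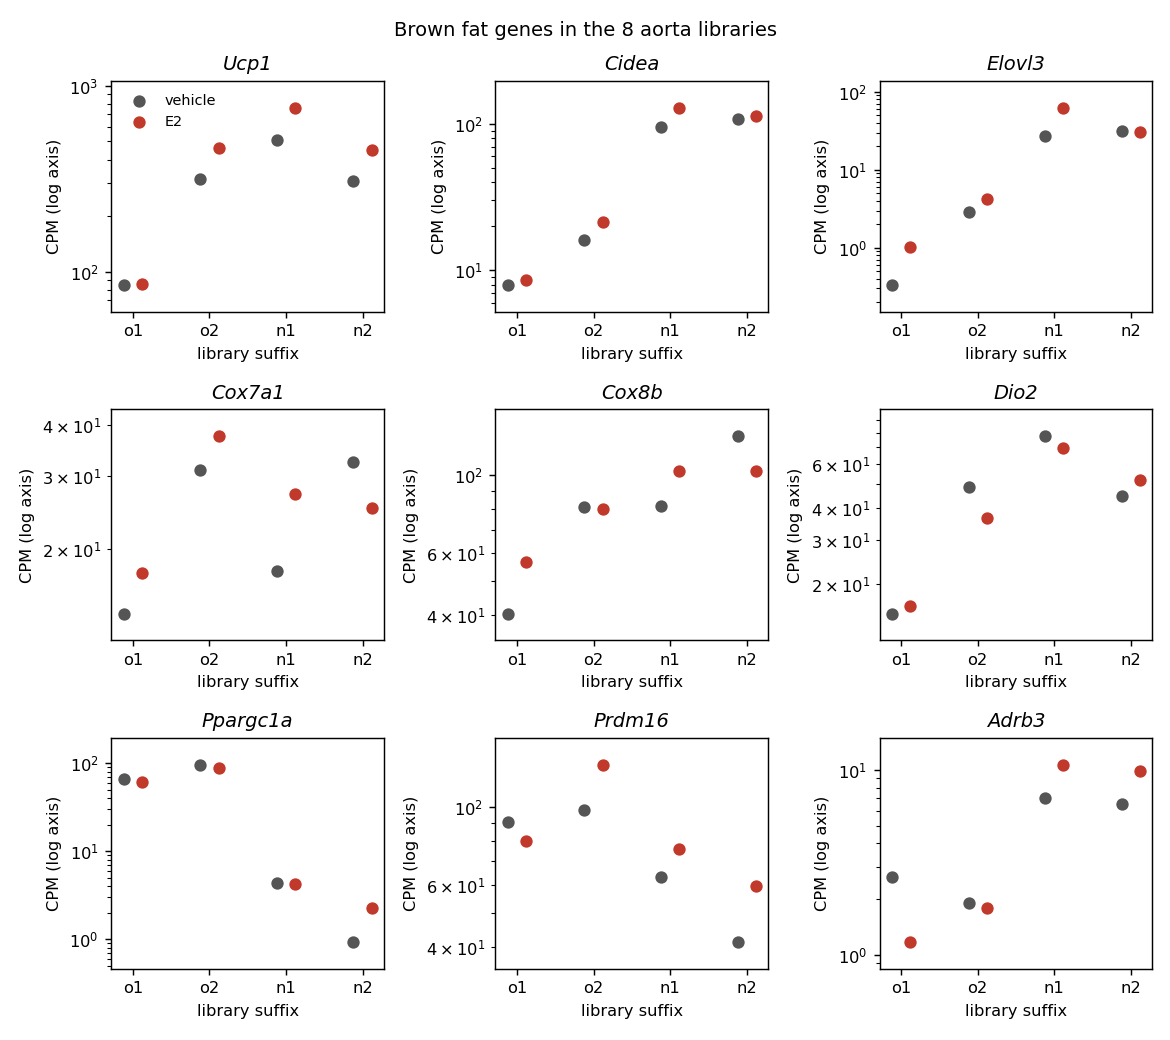
Level of each of the 9 genes in CPM (log axis) in the 8 aorta libraries, by library suffix, with vehicle in grey and E2 in red, 1 point per library. Ucp1 runs from 84.4 CPM in the vehicle library o1 to 760.1 CPM in the E2 library n1, and Ppargc1a is high in o1 and o2 and low in n1 and n2.

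Against liver, 6 of the 9 genes were called higher in the vehicle aorta and 0 lower, where 24.1% of 12607 genes were called higher and 23.4% lower (edgeR's quasi-likelihood test, Benjamini-Hochberg adjusted p under 0.05 and an absolute log2 fold change over 1). They were Ucp1, Cidea, Cox8b, Cox7a1, Dio2 and Prdm16. Ucp1, Cidea, Cox8b and Dio2 had 47, 14, 15 and 6 counts in vehicle liver and passed the filter through their aorta libraries. For such genes a call of higher was nearly fixed in advance, so 6 of 9 is a description. The same holds for other listed genes with few liver reads. Elovl3, Adrb3 and Ppargc1a were not called. The 9 genes had a median log2 difference of 4.12, beside 0.05 for all genes tested. Leaving out single liver vehicle libraries raised called values, to 8.21 for Ucp1 and 9.49 for Dio2 without n2 and to 8.14 for Cox8b and 7.53 for Cidea without n1 (each being the library with the most liver reads of that gene).

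**Figure D2:**
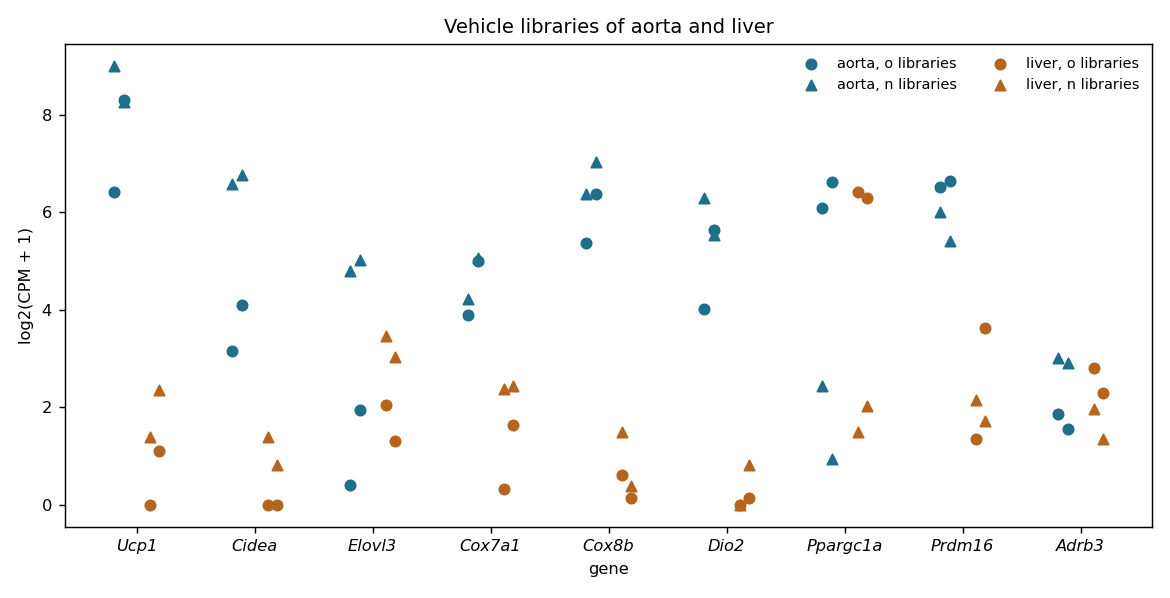
Levels as log2(CPM + 1) in the 4 vehicle libraries of aorta (blue) and of liver (brown), with circles for o and triangles for n libraries. Ucp1, Cidea, Cox8b, Dio2 and Prdm16 separate the tissues in every library, as does Cox7a1, while Elovl3, Ppargc1a and Adrb3 overlap.

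Ucp1, the proton leak of brown fat mitochondria, stood at 84.4, 313.7, 509.4 and 306.8 CPM in the vehicle aorta libraries o1, o2, n1 and n2. With E2 it stood at 86.1, 464.2, 760.1 and 451.9 CPM in the same order. The o1 libraries of both treatments were the lowest, and the n1 libraries were the highest. In liver it had 47 counts with vehicle and 24 with E2, and at most 4.14 CPM in a library. It was higher in aorta than in liver by 7.51 ± 0.52 on the log2 scale (adjusted p = 2.75e-07).

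Cidea, a lipid droplet protein of brown adipocytes, stood at 7.93, 16.2, 94.5 and 107.3 CPM in the vehicle aorta libraries o1, o2, n1 and n2. With E2 it stood at 8.65, 21.5, 128.9 and 113.2 CPM. Each n library exceeded each o library, and the treatments overlapped. Cidea was higher in aorta than in liver by 6.72 ± 0.53 (log2, adjusted p = 8.47e-07), with 14 counts in liver with vehicle and 2 with E2, all of them in n libraries. The span of the gene overlaps that of the antisense transcript B430212C06Rik in GENCODE vM21. Whether this affects the Cidea counts was not tested, since the annotation and strand setting used for counting are not given.

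Elovl3, which elongates very long chain fatty acids and is also made in liver, stood at 0.330, 2.85, 26.9 and 31.4 CPM in the vehicle aorta libraries. With E2 it stood at 1.03, 4.24, 62.6 and 30.6 CPM. The o libraries held 115 of its aorta reads and the n libraries 3581. In vehicle liver it stood at 3.10, 1.47, 10.0 and 7.21 CPM for o1, o2, n1 and n2, so the 2 tissues overlapped, and the log2 difference was 0.79 ± 0.64 (adjusted p = 0.321). The n libraries alone gave 1.65 (adjusted p = 0.0112) and the o libraries alone −0.78, and without the aorta library o1 or the liver library o1 it was 1.58 or 1.57, both past the threshold. Its gene model overlaps Pitx3 on the other strand.

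Cox8b and Cox7a1 encode subunits of cytochrome c oxidase that are found in heart, skeletal muscle and brown fat in place of the widely used Cox8a and Cox7a2. Cox8b stood at 40.3, 81.2, 81.7 and 129.4 CPM with vehicle in o1, o2, n1 and n2. With E2 it stood at 56.7, 80.3, 103.1 and 102.8 CPM. Only the o1 libraries stood clearly below the rest. It was higher in aorta than in liver by 7.06 ± 0.59 (log2, adjusted p = 1.37e-06). Cox7a1 stood at 13.9, 31.1, 17.6 and 32.5 CPM with vehicle and at 17.4, 37.6, 27.2 and 25.1 CPM with E2, and was higher in aorta than in liver by 3.25 ± 0.50 (adjusted p = 0.00019). The widely used Cox8a and Cox7a2 were not called between the tissues. Cox8b reached 1.83 to 3.36 times the CPM of Cox8a in o libraries and 0.699 to 0.837 times in n libraries, and the ratio of Cox7a1 to Cox7a2 was 0.730 to 2.69 in o and 0.276 to 0.443 in n libraries.

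Both isoforms are shared with striated muscle, so muscle genes were summed beside them. The 26 listed skeletal and cardiac genes summed to 31.7 to 243.8 CPM in the aorta, highest in the vehicle library o1, where Myh6, the cardiac myosin gene, stood at 97.8 CPM and Tnnt2, cardiac troponin T, at 93.1 CPM. Cox8b and Cox7a1 had their lowest level in that same library, as did Ucp1, Cidea, Elovl3 and Dio2. Cox8b and Cox7a1 were next lowest in the E2 library o1, where the muscle sum was at its minimum of 31.7 CPM. Ckm, the muscle creatine kinase gene, stayed at or under 1.06 CPM and Myh4, a fast skeletal myosin gene, at or under 0.297 CPM in every aorta library. The part of muscle in the levels of Cox8b and Cox7a1 was not tested.

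Dio2 makes active thyroid hormone within the cell and is switched on by cAMP in brown fat. It stood at 15.2, 48.6, 77.5 and 44.9 CPM with vehicle in o1, o2, n1 and n2. With E2 it stood at 16.3, 36.7, 69.4 and 51.6 CPM. The o1 libraries were again lowest and the n1 libraries highest, as for Ucp1. In liver it had 6 counts with vehicle and 0 with E2, and the aorta was higher by 7.60 ± 0.64 (log2, adjusted p = 1.54e-06).

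Ppargc1a and Prdm16 are transcriptional regulators, the first a coactivator of mitochondrial genes and the second a determinant of brown fat identity. Ppargc1a stood at 66.7, 96.5, 4.39 and 0.922 CPM in the vehicle aorta libraries o1, o2, n1 and n2. With E2 it stood at 61.9, 89.3, 4.198 and 2.28 CPM. In liver the same split appeared, with 77.6 to 103.7 CPM in the 4 o libraries and 1.10 to 3.07 CPM in the 4 n libraries. The mean of o libraries was 26.6 times that of n libraries in aorta and 39.4 times in liver. The tissues did not separate, at a log2 difference of −0.03 ± 0.41 (adjusted p = 0.962). Prdm16 stood at 90.5, 98.1, 63.2 and 41.2 CPM with vehicle and at 80.1, 131.8, 75.6 and 59.6 CPM with E2, and was higher in aorta than in liver by 4.12 ± 0.46 (adjusted p = 1.42e-05).

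Adrb3, the beta-3 adrenergic receptor of adipocytes, was the least abundant by its mean over the vehicle aorta libraries. By CPM, Ppargc1a stood lower in every n library of aorta, and Elovl3 in both o1 libraries. It stood at 2.64, 1.92, 7.05 and 6.53 CPM with vehicle in o1, o2, n1 and n2, and at 1.17, 1.78, 10.7 and 9.85 CPM with E2. The n libraries exceeded the o libraries in each case. Liver with vehicle held 1.53 to 5.95 CPM, so the tissues overlapped, at a log2 difference of 0.20 ± 0.64 (adjusted p = 0.811). Its gene model overlaps the antisense gene Gm45470, and those of Dio2, Ppargc1a and Prdm16 overlap other gene models too.

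Most of the 9 genes differed between n and o libraries of aorta, as most genes did. Of the 9, 5 were called higher in n, where 33.0% of 13698 genes were, and 1 was called lower, where 28.1% were (edgeR, adjusted p under 0.05, absolute log2 fold change over 1). Elovl3 was higher in n by 4.08 ± 0.49 (adjusted p = 2.11e-05), Cidea by 3.08 ± 0.30 (5.17e-06) and Adrb3 by 2.22 ± 0.33 (0.000118). Ucp1 differed by 1.15 ± 0.48 (0.0499) and Dio2 by 1.11 ± 0.35 (0.0134). Ppargc1a fell by 4.68 ± 0.41 (2.06e-06). Cox8b at 0.75 ± 0.26 and Prdm16 at −0.71 ± 0.21 passed the adjusted p but not the fold, and Cox7a1 differed by 0.10 ± 0.32. In 6 genes, Cidea, Elovl3, Cox8b, Ppargc1a, Prdm16 and Adrb3, the o and n libraries of aorta did not overlap, and the same was true of 66.0% of all genes tested. Neither count is thus a result about brown fat genes, and Cox7a1 did not pass at all.

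The calls of Ucp1 and Dio2 rested on few libraries. Ucp1 was no longer called without the vehicle library o1 (0.89), the vehicle library n1 (1.04), the E2 library o1 (0.83) or the E2 library n1 (1.00), and Dio2 without the vehicle library o1 (0.88), the vehicle library n1 (0.98) or the E2 library o1 (0.90). Leaving out both libraries of a suffix was chosen after seeing the data. Without both o1 libraries Ucp1 differed by 0.45, Dio2 by 0.59 and Elovl3 by 3.49. Without both o2 libraries Ucp1 differed by 2.52, Dio2 by 1.93, Cidea by 3.73 and Elovl3 by 5.79. Without both n1 libraries Ucp1 at 0.79 and Dio2 at 0.82 were not called, and Ppargc1a differed by −5.55.

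**Figure D3:**
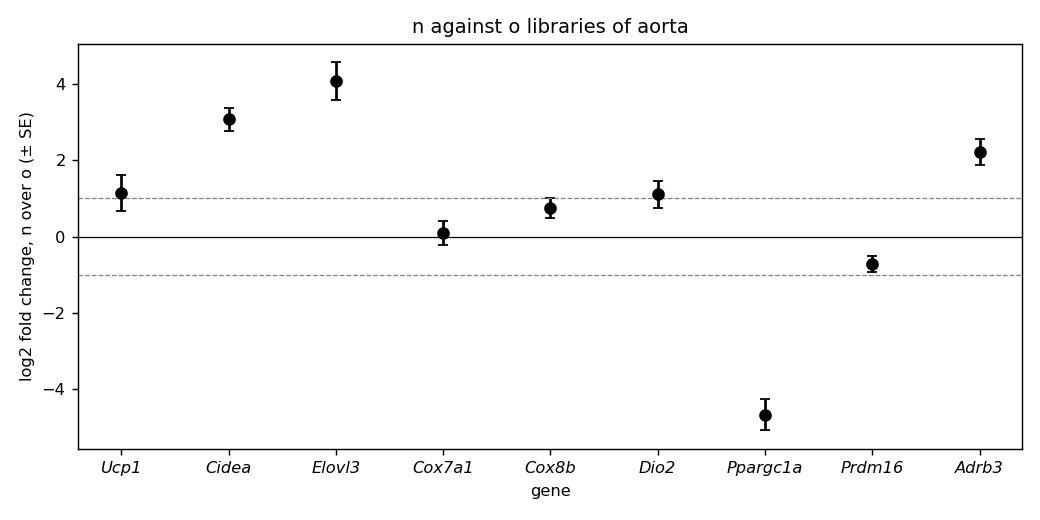
Log2 fold change of n over o libraries in the 8 aorta libraries for each gene, with bars of 1 SE and dashed lines at the fold threshold of 1 in each direction. Elovl3 at 4.08 and Ppargc1a at −4.68 lie at the ends, and Cox7a1 at 0.10 lies near 0.

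The libraries o1 and o2 also differed within their letter. Ucp1 in o2 was 3.72 times its level in o1 with vehicle and 5.39 times with E2, while Adipoq was 1.10 and 1.12 times. Over vehicle and E2 libraries together, 8 of the 9 genes stood higher in o2 than in o1, with a median log2 difference of 1.13. The same held for 13 of 19 tested adipocyte markers, with a median of 0.18, and for 69.2% of all genes tested, with a median of 0.31. Between n1 and n2, Ucp1 was 1.66 times as high with vehicle and 1.68 times with E2, and Adipoq 1.17 and 0.962 times. The difference between the brown fat genes and the other fat cell genes was not tested.

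Set against Adipoq in the same library, Ucp1 stood at 0.393, 1.33, 5.26 and 3.72 times its CPM with vehicle in o1, o2, n1 and n2. With E2 the ratios were 0.435, 2.09, 8.01 and 4.58. Adipoq itself was lower in n than in o by 1.18 ± 0.17 on the log2 scale. Of the 19 adipocyte markers, 11 were called higher in n and 4 lower, beside 33.0% and 28.1% of all 13698 genes tested. Mrap at 3.66 ± 0.29, Plin1 at 2.80 ± 0.21 and Cfd at 1.31 ± 0.22 were among the former. Fabp4 at −1.39 ± 0.20 was among the latter. The ratio therefore moves with the library letter on both sides, and the part of either in the other was not tested.

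**Figure D4:**
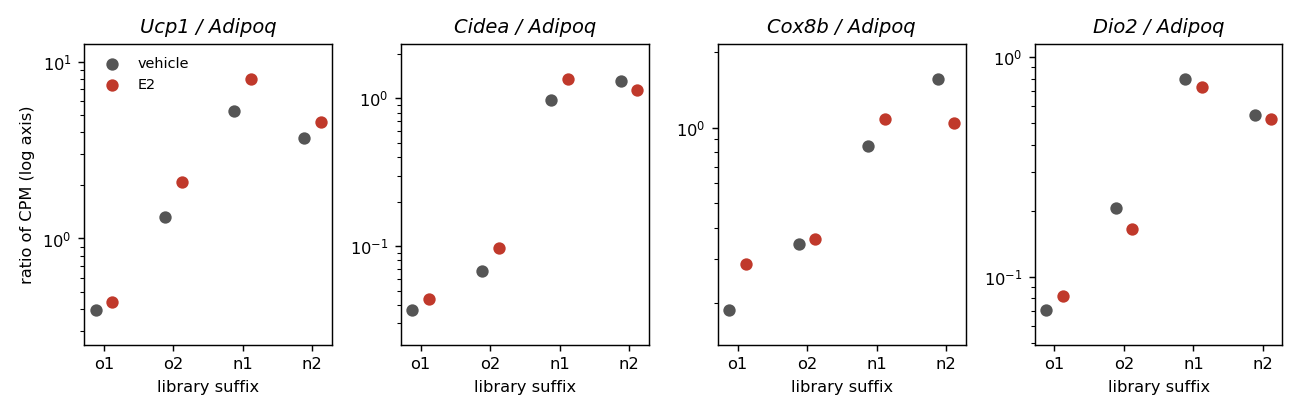
Ratio of the CPM of Ucp1, Cidea, Cox8b and Dio2 to that of Adipoq (log axis) in each aorta library, by suffix, with vehicle in grey and E2 in red. For Ucp1 the ratio runs from 0.393 in the vehicle library o1 to 8.01 in the E2 library n1.

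Across the 8 aorta libraries, after the mean of each letter was removed, Ucp1 correlated with Cidea at r = 0.94, Elovl3 at 0.90, Dio2 at 0.90, Prdm16 at 0.81, Cox7a1 at 0.73, Ppargc1a at 0.67, Cox8b at 0.61 and Adrb3 at 0.21. Adipoq had r = 0.66. Without removing the letter means, r was 0.94 for Dio2, 0.83 for Elovl3, 0.81 for Cidea, 0.79 for Cox8b, 0.66 for Adrb3 and 0.63 for Cox7a1, but −0.12 for Prdm16, −0.52 for Ppargc1a and −0.56 for Adipoq, so the sign of these 3 depends on that step. All values share libraries and depth and are a description. Of 12597 genes ranked by the letter-centred likeness to Ucp1, Cidea was at rank 402, Elovl3 at 745 and Dio2 at 768. The 10 most alike outside the set were Gsk3b, Fam214a, 2410089E03Rik, Phactr2, Armcx1, Hbs1l, Braf, 1110037F02Rik, Ccdc115 and Cbx1, with r from 0.990 to 0.994. Cox7a1 and Cox8b followed each other at r = 0.96, and Ppargc1a and Prdm16 at 0.84.

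E2 was compared with vehicle in the aorta to see whether the hormone moved these genes within 4 h. None of the 9 genes passed the test (edgeR, 0% of 13698 genes called, while 495 genes had an unadjusted p under 0.05), and every adjusted p was 1.00. DESeq2 called 24 genes and limma voom 0 genes, none of them among the 9, and with the suffix as a replicate block edgeR called 12 genes, also none of them. Of 6 tested estrogen targets, a list chosen with earlier results of these data known, 5 were higher with E2, at a median of 1.45. In edgeR 4 had an unadjusted p under 0.05 and the lowest adjusted p was 0.0898. The listed targets summed to 71.4 to 134.4 CPM with vehicle and 237.7 to 328.7 CPM with E2. Values of the members leaned to higher levels with E2 in 8 of the 9, beside 48.7% of all genes tested. The median was 0.14 beside −0.01 for all genes tested. The 9 genes share libraries and are not separate observations, and the signs of Cox8b, Ppargc1a and Adrb3 changed in some other settings.

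Elovl3 differed by 0.68 ± 0.28 on the log2 scale and was the only member with an unadjusted p under 0.05, at 0.0407. Its E2 library was higher in o1, o2 and n1 and not in n2. Ucp1 differed by 0.42 ± 0.22, and was higher with E2 in 4 of 4 suffixes, at 1.02, 1.48, 1.49 and 1.47 times in o1, o2, n1 and n2. Cidea differed by 0.25 ± 0.17, also higher in 4 of 4. Prdm16 differed by 0.24 ± 0.19, Cox7a1 by 0.14 ± 0.24, Adrb3 by 0.11 ± 0.32, Cox8b by 0.07 ± 0.21, Ppargc1a by 0.04 ± 0.35 and Dio2 by −0.10 ± 0.20. Of all genes tested, 7.75% were higher with E2 in all 4 suffixes and 6.58% lower in all 4. The E2 effects in n and in o libraries did not differ by the test in any member (0% of 14637 genes called, edgeR, with 114 genes at an unadjusted p under 0.05 and none of the 9).

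**Figure D5:**
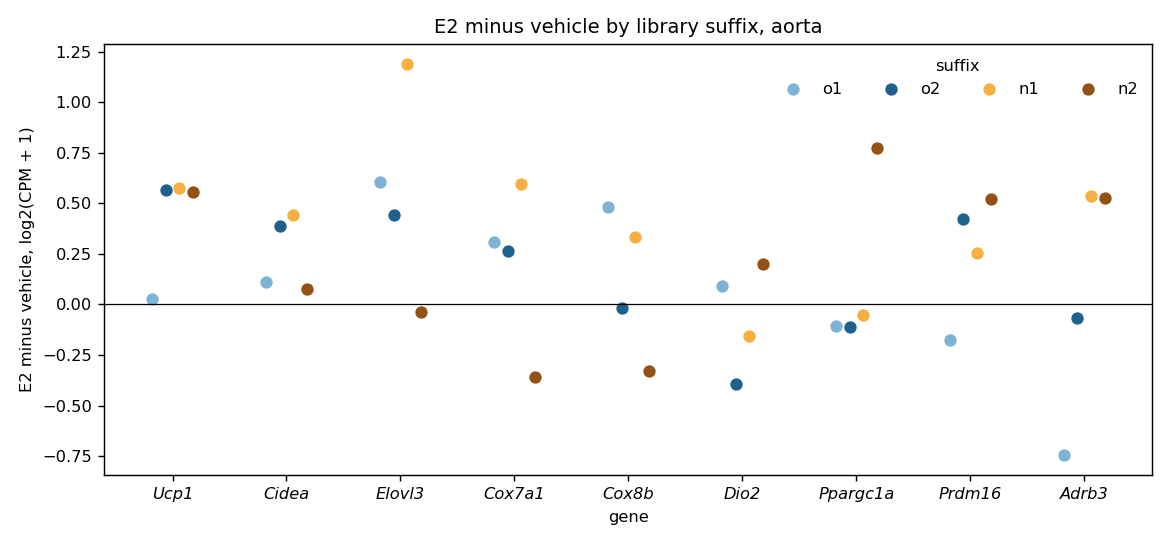
E2 minus vehicle as a difference of log2(CPM + 1) between the aorta libraries of the same suffix, for each gene, 1 point per suffix. Ucp1 and Cidea lie above 0 in all 4 suffixes, Dio2, Cox8b and Adrb3 in 2 and Ppargc1a in 1.

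Other genes of the pathway did not pass the test either. Over all genes tested 48.7% were higher with E2. Of 19 tested regulators of brown fat, 17 were higher and 2 lower, with a median log2 difference of 0.24. Among them Ppara, a fatty acid receptor, differed by 0.62 ± 0.36, its partner Rxra by 0.37 ± 0.20, the thyroid hormone receptor gene Thra by 0.26 ± 0.17 and Cebpb, a transcription factor of fat cell differentiation, by 0.20 ± 0.27. Of 14 genes of adrenergic and cAMP signalling 11 were higher, with a median of 0.21. There the beta-1 receptor gene Adrb1 differed by 0.83 ± 0.63, the protein kinase A subunit gene Prkaca by 0.27 ± 0.17, the G protein gene Gnas by 0.06 ± 0.15 and the cAMP-responsive factor gene Creb1 by −0.17 ± 0.16.

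Among 19 genes of thermogenic fuel use 18 were higher, with a median of 0.27, and 4 had an unadjusted p under 0.05, the lowest for Cpt1b and Acot11. Cpt1b, the carnitine palmitoyltransferase of muscle and brown fat mitochondria, differed by 0.76 ± 0.23, and Acot11, an acyl-CoA thioesterase, by 0.78 ± 0.26. The fatty acid oxidation genes Hadha and Acadvl, the most abundant of the list, differed by 0.28 ± 0.16 and 0.13 ± 0.15. Of 20 further brown and beige markers 11 were higher and 9 lower, with Clstn3 at 0.85 ± 0.36, Slc36a2 at 0.64 ± 0.23, Pdk4 at 0.30 ± 0.33 and Slc29a1 at −0.13 ± 0.16. Of 19 general adipocyte markers 13 were higher, at a median of 0.09, with Gpd1 at 0.54 ± 0.18, Plin4 at 0.46 ± 0.18, Cfd at −0.15 ± 0.17 and Fabp4 at −0.19 ± 0.17. None of these genes passed the adjusted test (edgeR, every adjusted p 1.00).

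Markers of other cells did not pass the E2 test either, with 0 called in each list. Lymphocyte genes were lower with E2 in 12 of 12, fibroblast genes in 10 of 10, hepatocyte genes in 9 of 9 and macrophage genes in 6 of 7, and smooth muscle genes were higher in 8 of 10. Their median log2 differences were −1.75, −0.12, −0.84, −0.04 and 0.11. Nerve genes were higher in 6 of 8, endothelial genes in 5 of 8 and skeletal and cardiac muscle genes in 7 of 16. In edgeR 7 of 9 hepatocyte genes had an unadjusted p under 0.05, beside 3.61% of all genes tested. So did 2 of 12 lymphocyte, 1 of 10 fibroblast, 1 of 7 macrophage and 1 of 16 skeletal and cardiac muscle genes. The lymphocyte genes summed to 224.2 CPM in the vehicle library n2 and to 13.4 to 102.7 CPM in the other 7 aorta libraries. The part of these cells in the values above was not tested.

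In liver, 5 of the 9 genes passed the filter and none passed the E2 test (edgeR, 0% of 11726 genes called, 502 at an unadjusted p under 0.05). Elovl3 differed by −1.50 ± 0.60 (adjusted p = 0.939) and Ppargc1a by 0.13 ± 0.27. Elovl3 stood at 0.818, 0, 5.35 and 4.40 CPM with E2 in o1, o2, n1 and n2, lower than its vehicle library in 4 of 4 suffixes. By the interaction of tissue and treatment, E2 minus vehicle was larger in aorta by 2.04 ± 0.60 for Elovl3 (adjusted p = 0.755) and by 1.26 ± 0.57 for Ucp1 (adjusted p = 0.875), and neither passed. None of 14190 genes did (0%, with 761 at an unadjusted p under 0.05, 4 of the 9 among them). These 4 were Ucp1, Cidea, Elovl3 and Dio2. Ucp1, Cidea, Dio2 and Cox8b did not pass the filter in liver, where they had few reads. The interactions of Ucp1, Cidea and Dio2 therefore rest on 71, 16 and 6 liver reads. These genes passed the filter of the interaction test through their aorta libraries, so the count of 4 is a description only. The interaction of Ucp1 was 0.14 in o libraries alone and 2.02 in n libraries alone. It was 0.62 without the liver vehicle library n2 and 0.75 without the liver E2 library n1. These members of the liver and interaction tests were chosen for mention after their values were seen.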

How the data were processed

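The deposited table holds reads per gene symbol, which the authors counted. Per the submitters' processing notes, Bowtie 0.12.5, mouse build mm9, HTSeq 0.4.5p7 and edgeR 3.4.2 were named. Annotation, strand and read filters: not given in the sources used here. The deposited values were entered as estimated counts because the last line holds percentages, but every gene value is whole, so rounding changed nothing. Another 8 lines name no gene and were left out. Reads in no annotated gene made up 48.0% to 75.2% of a library.

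Columns were assigned to groups by tissue and treatment. The test was edgeR 4.0.16 (R 4.3.3, quasi-likelihood, TMM, filterByExpr with minimum count 10 and total 15, Benjamini-Hochberg adjusted p under 0.05). E2 tests have a batch covariate with levels o1, o2 and n, and the tissue test does too, while the n against o test has treatment. DESeq2 1.42.0 and limma 3.58.1 were alternatives. The E2 test in aorta, the tissue test and the n against o test were tried on simulated data that held no batch effect. The E2 test in liver and the interaction tests were not tried in this way. SE is the absolute log2 fold change over the square root of F. Exon lengths are unions from GENCODE vM21 and give CPM per kb only. The members and gene lists were chosen with earlier results of these data known. All 9 members are named. In a list described by single genes, the 2 most abundant in vehicle aorta and the 2 with the lowest p are named, with the 10 genes most like Ucp1. The other lists are given as counts, except those of creatine and calcium cycling genes and of paralogs, which were compared but are not described as lists. Some others are named as chosen after their values were seen.

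Replicate numbers were checked for pairing by the correlation of deviations from group means between the vehicle and E2 library of a suffix. It was 0.91, 0.93, 0.92 and 0.89 in aorta and 0.92, 0.87, 0.92 and 0.88 in liver. The difference between o and n dominates these values. With letter means removed they were 0.51 and 0.44 in aorta and 0.30 and −0.06 in liver, where the 2 libraries of a letter mirror each other. No label states the pairing.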

Additional observations from a re-analysis of the deposited data

Results flagged for a closer look

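In liver with E2, Cox8b stood at 1.04 CPM in the library o2, from 10 counts, and at 0 in the other 3 libraries, a gap that set that library apart from its group. In liver with vehicle, Dio2 stood at 0.767 CPM in the library n2, from 5 counts, and between 0 and 0.105 CPM in the others, which set it apart in the same way. For values that vary without a floor, chance gives such a gap in about 1 in 20 groups, and 35 combinations of gene and group were examined. That rate does not hold for counts near 0, where a single library with reads gives the largest gap possible. Both flagged values rest on few reads.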

How the results depend on the processing

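The number of the 9 genes called stayed at 0 in 22 other settings for E2 in aorta and 18 for E2 in liver. For the difference in E2 effect it stayed at 0 in 26 settings between the tissues and 13 between n and o libraries of aorta. For the difference in level it ran from 6 to 7 in 18 settings between the tissues and from 4 to 8 in 18 between n and o. For E2 in aorta the sign changed for Ppargc1a without a batch covariate (−0.081) and in o libraries alone (−0.091), for Adrb3 in o alone (−0.54) and for Cox8b in n alone (−0.093). Leaving out libraries gave −0.061 to 0.29 for Cox8b, −0.24 to 0.066 for Dio2, −0.20 to 0.37 for Ppargc1a and −0.072 to 0.37 for Adrb3. In liver Ppargc1a was −0.21 in n alone and −0.043 to 0.26 with libraries left out. Between the tissues Ppargc1a was 0.023 with RLE size factors, 0.019 with DESeq2, 0.062 without a filter and 0.099 without Rn45s, while Elovl3 was −0.78 and Adrb3 −1.20 in o alone. With libraries left out, Ppargc1a ran from −0.43 to 0.22 and Adrb3 from −0.25 to 0.85 there, and Cox7a1 from −0.34 to 0.71 between n and o. Leaving out Rn45s moved the median of all genes by 0.14 between aorta and liver. The cause of these changes was not tested. The replicate block changed no call among the 9 genes. It was not run for n against o, since each suffix lies in 1 letter. Low counts in liver limit what can be seen there.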
